A study of Mus musculus with 6 samples.

Results

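The 37 genes carried by the mouse mitochondrial genome were examined in colorectal tumors of 2 genotypes. They are the rows of the deposited gene table whose names begin with mt-, 37 of 54167 genes, and comprise 13 mRNAs, 2 rRNAs and 22 tRNAs. Tumors came from C57BL/6J mice, 3 from Trp53fl/fl animals and 3 from VP animals. Trp53fl/fl mice carry floxed Trp53 alleles and no Cre, and VP mice carry the same floxed alleles together with Pvillin-Cre, a Cre recombinase driven by the villin promoter, which is active in intestinal epithelium and not in stroma or immune cells. Both genotypes received the same AOM/DSS treatment, in which male mice aged 8 weeks were injected with azoxymethane (AOM, a carcinogen) at 10 mg/kg and then drank dextran sulfate sodium (DSS, which injures the colon lining) at 2.5% in 3 courses of 7 days, with tumors collected on day 98. RNA was selected by its poly(A) tail, sequenced from both ends and deposited as TPM, a unit that divides reads by transcript length and scales every tumor to the same total. The labels number the tumors but do not say that each came from its own mouse, so the p-values below measure the spread between these 6 samples.

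The mitochondrial genome is a small circle transcribed from both strands into long precursors, which are cut at the tRNAs that lie between the other genes. Its mRNAs encode core subunits of the respiratory chain and of the ATP synthase, its rRNAs build the mitochondrial ribosome and its tRNAs decode those mRNAs, while every protein needed to copy, transcribe and process it is encoded in the nucleus. In the intestine, mitochondrial content and respiration differ between stem cells and differentiated epithelium. Most mitochondrial mRNAs end in short poly(A) tails, and tRNAs carry none.

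The libraries were first checked at the targeted gene and at markers of cell types. Trp53 was at 124.94, 99.30 and 147.45 TPM in the 3 Trp53fl/fl tumors against 38.45, 32.79 and 27.83 TPM in the 3 VP tumors (log2 fold change -1.87, standard error 0.18, limma adjusted p = 0.0207). The groups stood far apart, but the call was lost without Trp53fl/fl replicate 1 or 3 or VP replicate 1 or 2 (limma adjusted p 0.0553 to 0.0986), each of which left 5 tumors. All 12 epithelial markers were tested, with 9 positive and 3 negative fold changes and 0 called. Their summed level lay between 11011 and 11452 TPM in Trp53fl/fl tumors and between 12450 and 13482 TPM in VP tumors, also without overlap. The 13 neutrophil markers summed to between 599.8 and 1205 TPM against 1683 to 2765 TPM, and the 6 erythroid markers to between 164.5 and 484 TPM against 648 to 992 TPM, each higher in VP tumors without overlap. Of the neutrophil markers 11 were tested, all with positive fold changes and 1 called, and of the erythroid markers 4, all positive and 0 called. The sums of macrophage markers (548 to 593 TPM against 602 to 767 TPM) and of endothelial markers (94.3 to 114 TPM against 117 to 122 TPM) were also higher in VP tumors without overlap. Their single genes were mixed, with 6 positive and 2 negative fold changes for macrophages and 7 positive and 1 negative for endothelium, and 0 called in either. Over all single genes tested, 19.3% showed no overlap between the genotypes. The sums of markers of smooth muscle, fibroblasts, T cells, and B and plasma cells overlapped. Among their single genes, 2 fibroblast, 2 T cell and 1 B and plasma cell marker were lower in VP tumors without overlap. In these 4 cell types 0 single markers were higher in VP tumors without overlap. The part of these cell types in the mitochondrial values was not tested.

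No mitochondrial transcript passed the test between the genotypes. With limma on log2(TPM + 1), 0 of the 15 members that passed the expression filter (at least 1 TPM in at least 3 tumors) had an adjusted p-value under 0.05, against 25 of all 15117 genes tested, or 0.165%. At an unadjusted p-value under 0.05 there was 1 member, mt-Nd3, against 1892 genes or 12.5% of those tested. The values of the genotypes overlapped for every one of the 15, whereas 2922 genes, or 19.3%, showed no overlap. Fold changes are given throughout as log2 differences of TPM + 1 with VP minus Trp53fl/fl. They were positive for 5 members and negative for 10, beside 5930 positive and 9187 negative over all genes tested. The median over the 13 mRNAs was -0.07, the same to 2 decimals as the median of -0.07 over all genes tested. That match held for the genes as listed. With mRNAs added to their nuclear copies, described below, the median was -0.14, beside -0.07 over all genes tested. The fold changes of mt-Co2, mt-Atp6 and mt-Co3 were then negative. The 15 members were the 13 mRNAs and the 2 rRNAs, and the 22 tRNAs were listed at 0 TPM in all 6 tumors. A missed threshold does not show that levels were equal, and for only 7 of the 15 was the 95% interval of the log2 fold change narrower than 1. In whole tumors, any difference in the number of mitochondria-rich cells cannot be told apart from one in mitochondrial RNA per cell.

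Together the 37 genes held 5.44%, 7.84% and 6.25% of all TPM in the Trp53fl/fl tumors and 6.40%, 4.96% and 5.37% in the VP tumors. The means were 6.51% ± 1.22 (SD, n = 3) and 5.57% ± 0.742 (SD, n = 3), a difference of -0.938 percentage points with overlapping values. Trp53fl/fl replicate 2 stood highest and VP replicate 2 lowest. Of the 15 detected members, 9 reached their highest level in Trp53fl/fl replicate 2 and 7 their lowest in VP replicate 2, so members tended to be high or low in the same tumor. Without Trp53fl/fl replicate 2, the difference in the summed share was -0.272 percentage points. The 12 mRNAs other than mt-Atp8 held 3.34% ± 0.418 and 3.23% ± 0.336 of TPM (SD, n = 3 each), so the difference in the sum lay mainly in mt-Atp8, at 3.11% ± 0.806 and 2.30% ± 0.534 (SD, n = 3 each).

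**Figure D1:**
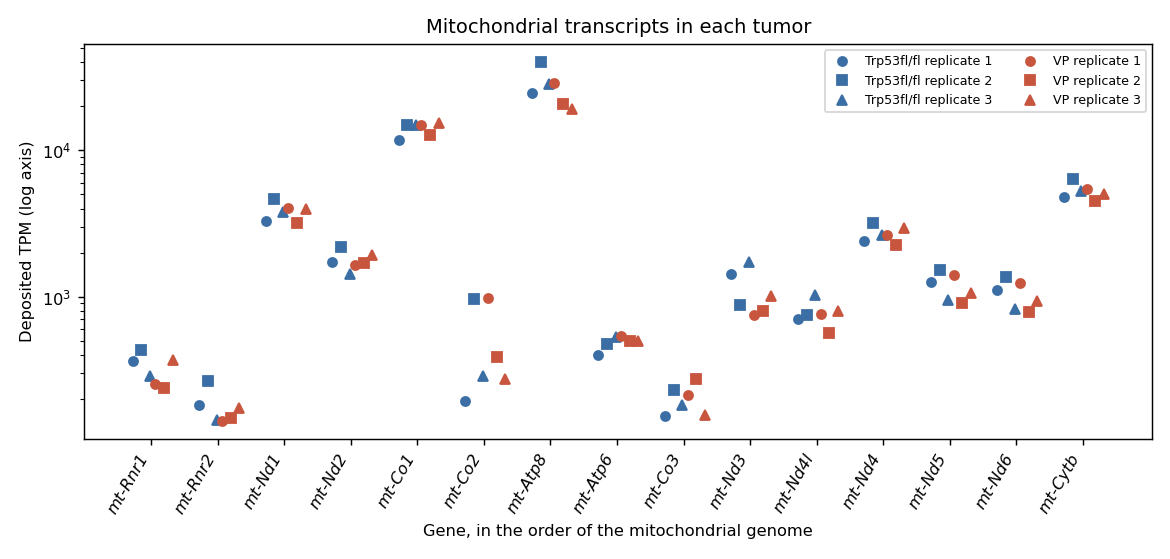
Level of each detected mitochondrial transcript in each of the 6 tumors, in deposited TPM on a log axis, with genes in genome order. Each point is 1 tumor, blue for Trp53fl/fl and red for VP. The colors overlap for all 15 genes, and mt-Atp8 stands highest in every tumor.

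The levels themselves spanned more than 2 orders of magnitude, from 141.80 TPM for mt-Rnr2 in VP replicate 1 to 40186 TPM for mt-Atp8 in Trp53fl/fl replicate 2. TPM is scaled per length, but the listed values are no plain ranking of RNA levels, since genes read from 1 shared mRNA were listed far apart, mt-Atp8 is shorter than the sequenced fragments and several genes share their reads with nuclear copies, as given below for each. In the table as deposited, the order mt-Atp8, mt-Co1, mt-Cytb, mt-Nd1 and mt-Nd4 held the first 5 places in all 6 tumors, and mt-Atp8 was the highest gene of the whole table in each of them. Among these, only mt-Cytb and mt-Nd1 had overlapping ranges, although mt-Cytb was higher in 6 of 6 tumors. From mt-Nd2 downwards, each gene's range overlapped that of the next, through mt-Nd5, mt-Nd3, mt-Nd6, mt-Nd4l, mt-Co2, mt-Atp6, mt-Rnr1, mt-Co3 and mt-Rnr2. The transcripts of 1 complex were far apart in this order: mt-Co1 was second, while mt-Co2 and mt-Co3, which encode its partner subunits of cytochrome c oxidase, were near the end.

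Complex I (NADH dehydrogenase), where electrons enter the respiratory chain, takes 7 subunits from the mitochondrial genome. The 7 mRNAs summed to 11899, 14478 and 12374 TPM in Trp53fl/fl tumors and 12488, 10167 and 12672 TPM in VP tumors, with overlap. mt-Nd1 encodes a membrane subunit at the junction with the arm that binds NADH, and was at 3277.26, 4615.38 and 3807.84 TPM in Trp53fl/fl tumors against 4028.09, 3186.16 and 3995.35 TPM in VP tumors (log2 fold change -0.06, standard error 0.18, limma adjusted p = 0.911). mt-Nd2, a proton-pumping subunit of the membrane arm, was at 1719.72, 2172.78 and 1424.56 TPM against 1651.15, 1694.30 and 1931.06 TPM (log2 fold change 0.01, standard error 0.18, limma adjusted p = 0.990). For both genes the 3 VP values fell inside or just beside the range of the Trp53fl/fl values. mt-Nd4, another proton-pumping subunit, was at 2413.51, 3166.42 and 2621.57 TPM against 2650.99, 2236.04 and 2945.98 TPM (log2 fold change -0.07, standard error 0.16, limma adjusted p = 0.882). mt-Nd4l, a short membrane subunit read from the same mRNA as mt-Nd4, was at 698.78, 753.98 and 1018.31 TPM against 760.24, 561.75 and 803.23 TPM (log2 fold change -0.21, standard error 0.20, limma adjusted p = 0.655). Although their coding regions overlap by 7 bases on that shared mRNA, mt-Nd4 was listed between 2.57 and 4.20 times above mt-Nd4l.

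mt-Nd3, a small subunit near the quinone-binding site of complex I, had the largest fold change of the 15 when each gene was taken without its nuclear copy. It was at 1433.09, 878.11 and 1734.27 TPM in the Trp53fl/fl tumors against 751.41, 793.10 and 1003.84 TPM in the VP tumors. Trp53fl/fl replicates 1 and 3 lay above all VP tumors, and replicate 2 lay below VP replicate 3. The log2 difference was -0.62 (standard error 0.26, 95% interval -1.23 to -0.01), and with limma it did not pass the adjustment over all genes (unadjusted p = 0.046, adjusted p = 0.391). With 1 tumor left out it ran from -0.90 without Trp53fl/fl replicate 2 to -0.41 without Trp53fl/fl replicate 3, and mt-Co2 exceeded it without Trp53fl/fl replicate 2, at 0.99. This gene shares nearly all of its sequence with a nuclear copy, treated below.

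mt-Nd5 and mt-Nd6, also subunits of complex I, face each other on opposite strands. mt-Nd5 was at 1251.05, 1529.72 and 941.30 TPM in Trp53fl/fl tumors and 1408.44, 909.04 and 1060.39 TPM in VP tumors (log2 fold change -0.14, standard error 0.23, limma adjusted p = 0.816). mt-Nd6, the only mRNA of the 13 encoded on the minus strand, was at 1105.53, 1361.25 and 826.26 TPM and at 1237.40, 787.07 and 932.56 TPM (log2 fold change -0.15, standard error 0.23, limma adjusted p = 0.800). Both were highest in Trp53fl/fl replicate 2 and lowest in VP replicate 2. The ratio of mt-Nd6 to mt-Nd5 was 0.866 to 0.890 in the 6 tumors, a spread of 1.03-fold, although mt-Nd5 itself varied 1.68-fold. Among the 105 pairs of detected members this was the steadiest ratio, ahead of mt-Nd1 to mt-Nd4 at 1.12-fold, with a median spread of 1.93-fold over all pairs. The pair was singled out after its values were seen, and all the ratios come from the same 6 libraries.

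The annotated 3′ ends of mt-Nd5 (chrM:11742-13565, plus strand, GRCm38) and mt-Nd6 (chrM:13552-14070, minus strand, GRCm38) overlap by 14 bases, at chrM:13552-13565. Their last 60 bases, each printed 5′ to 3′ on its own strand, are shown because they give the extent of that overlap, and capitals mark the 14 shared bases, which are the reverse complement of each other:
mt-Nd5: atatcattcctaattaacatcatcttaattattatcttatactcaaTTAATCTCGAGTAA
mt-Nd6: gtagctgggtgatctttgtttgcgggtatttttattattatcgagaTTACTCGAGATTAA
As background, the mt-Nd5 mRNA runs on past its coding region and lies antisense to mt-Nd6. The strand setting of the libraries and of the quantification is not given in the sources used here, and without strand, reads of mt-Nd6 and of RNA antisense to it cannot be told apart.

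**Figure D2:**
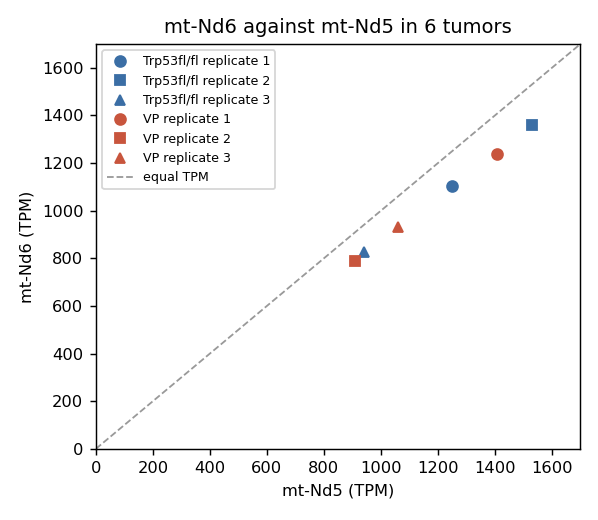
mt-Nd6 against mt-Nd5, both in deposited TPM, with 1 point per tumor and a dashed line of equal TPM. All 6 tumors lie just below that line, with mt-Nd6 at 0.866 to 0.890 of mt-Nd5 in both genotypes.

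Cytochrome b, the mitochondrial subunit of complex III, passes electrons from quinol to cytochrome c. Its mRNA mt-Cytb was at 4808.58, 6415.53 and 5285.87 TPM in Trp53fl/fl tumors against 5396.86, 4505.28 and 5034.31 TPM in VP tumors (log2 fold change -0.14, standard error 0.16, limma adjusted p = 0.736). The highest and the lowest tumor were again Trp53fl/fl replicate 2 and VP replicate 2, and the log2 fold change was -0.022 without the first and -0.068 without the second. Gm11410, the annotated gene elsewhere with the most 31-base stretches in common with it, was listed at 0 TPM in all 6 tumors.

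Complex IV (cytochrome c oxidase) reduces oxygen, and its catalytic core comes from mt-Co1, mt-Co2 and mt-Co3. mt-Co1, which binds the heme and copper center where oxygen is reduced, was at 11738.76, 14985.24 and 14869.19 TPM in Trp53fl/fl tumors and 14901.23, 12640.97 and 15404.83 TPM in VP tumors (log2 fold change 0.05, standard error 0.18, limma adjusted p = 0.922). mt-Co2, which takes electrons from cytochrome c, was at 194.23, 968.74 and 285.35 TPM against 972.76, 385.61 and 274.50 TPM (log2 fold change 0.31, standard error 0.67, limma adjusted p = 0.858). Trp53fl/fl replicate 2 and VP replicate 1 were far above the other 4 tumors in mt-Co2, so that it varied 5.01-fold over the 6 tumors, the most of any member, and its 95% interval of -1.26 to 1.89 was the widest. mt-Co3, a structural core subunit, was at 152.75, 228.48 and 182.81 TPM against 211.03, 271.66 and 155.03 TPM (log2 fold change 0.16, standard error 0.23, limma adjusted p = 0.788). Set beside mt-Co1, which varied only 1.31-fold, the listed levels of mt-Co2 and mt-Co3 were lower by more than 10-fold in every tumor.

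The ATP synthase takes its subunits a and 8 from mt-Atp6 and mt-Atp8, which are read from 1 shared mRNA in overlapping frames. mt-Atp8 was at 24707.83, 40186.12 and 28523.59 TPM in the Trp53fl/fl tumors against 29054.21, 20698.73 and 19114.59 TPM in the VP tumors. VP replicates 2 and 3 lay below all Trp53fl/fl tumors, and VP replicate 1 lay above 2 of them. The log2 fold change was -0.43 (standard error 0.27, 95% interval -1.06 to 0.19, limma adjusted p = 0.519), and -0.23 without Trp53fl/fl replicate 2. mt-Atp6 was at 397.36, 474.45 and 531.19 TPM against 538.56, 499.18 and 500.91 TPM (log2 fold change 0.14, standard error 0.13, limma adjusted p = 0.658). Although they share an mRNA, mt-Atp8 was listed 38.2 to 84.7 times above mt-Atp6, and their fold changes had opposite signs.

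The overlap of the ATP synthase genes covers 43 bases at chrM:7927-7969 on the plus strand of GRCm38. It is shown because a read that covers it holds sequence of both genes. The whole of mt-Atp8 (chrM:7766-7969, 204 bases) stands above the first 90 bases of mt-Atp6 (chrM:7927-8607), with the 43 shared bases in capitals:
mt-Atp8: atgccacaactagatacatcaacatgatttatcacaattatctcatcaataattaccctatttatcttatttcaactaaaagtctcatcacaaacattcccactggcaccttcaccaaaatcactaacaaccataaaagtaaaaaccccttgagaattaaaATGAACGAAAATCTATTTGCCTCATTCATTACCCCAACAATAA
mt-Atp6: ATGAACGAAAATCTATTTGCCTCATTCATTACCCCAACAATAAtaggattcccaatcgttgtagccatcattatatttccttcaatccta
mt-Atp8 is shorter than the 300 bp to which the cDNA fragments were size-selected, so that a fragment of that size covering it extends into a neighboring gene.

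Within the 13 mRNAs, mt-Atp8 made up 45.8%, 51.7% and 46.0% of their summed TPM in Trp53fl/fl tumors and 45.7%, 42.1% and 36.0% in VP tumors, with all VP values lower. The share of mt-Nd1 was 6.08%, 5.94% and 6.14% against 6.34%, 6.48% and 7.52%, with all VP values higher. The shares of the other 11 mRNAs overlapped between the genotypes. For comparison, the TPM of 19.3% of all genes tested showed no overlap. Both results depend on the denominator, which here leaves out the nuclear copies described below. With each gene added to its copy, mt-Atp8 made up 26.8%, 31.2% and 28.1% against 27.2%, 24.6% and 20.8%, and the genotypes overlapped. mt-Nd1 remained without overlap, at 3.56%, 3.59% and 3.75% against 3.78%, 3.79% and 4.36%, and mt-Co2 became so, at 13.1%, 12.1% and 13.2% against 13.9%, 14.2% and 15.3%. These shares add up to a fixed total that mt-Atp8 dominates, so a lower share of mt-Atp8 raises the others. With 3 tumors against 3 an exact two-sided permutation test cannot go below 0.1, and no test was made of the shares.

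The rRNAs of the mitochondrial ribosome were among the lowest transcripts. mt-Rnr1, the small-subunit 12S rRNA, was at 364.61, 434.10 and 286.20 TPM in Trp53fl/fl tumors against 252.11, 235.54 and 366.99 TPM in VP tumors (log2 fold change -0.35, standard error 0.22, limma adjusted p = 0.520). mt-Rnr2, the large-subunit 16S rRNA, was at 182.20, 265.73 and 142.48 TPM against 141.80, 148.25 and 174.38 TPM (log2 fold change -0.30, standard error 0.22, limma adjusted p = 0.585). In both, Trp53fl/fl replicate 2 was highest and the genotypes overlapped, and without that tumor the log2 fold changes were -0.21 for mt-Rnr1 and -0.063 for mt-Rnr2. The summed rRNAs amounted to 0.620% to 1.02% of the 13 mRNAs in these poly(A)-selected libraries, whereas in cells the rRNAs are known to be the most abundant mitochondrial transcripts. The ratio of mt-Rnr1 to mt-Rnr2 was 1.59 to 2.10 and overlapped between the genotypes.

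A cytosolic RNA that lacks a poly(A) tail moved with the genotype. Rn18s, the 18S rRNA of cytosolic ribosomes, was at 6115.66, 5647.71 and 5458.48 TPM in Trp53fl/fl tumors against 2382.40, 2574.78 and 2660.05 TPM in VP tumors, lower in every VP tumor (log2 fold change -1.18, standard error 0.13, limma adjusted p = 0.0289). Its fold change stayed between -1.21 and -1.13 with any 1 tumor left out, but the adjusted p with limma was then 0.0566 to 0.165. Of 9 RNAs listed as lacking a poly(A) tail, 5 were in the table, and Rn18s was the only one called. Rn7s1 and Rn7s2, copies of the signal recognition particle RNA, carried identical values in every tumor and count as 1 measurement, at 142.65, 134.44 and 150.68 TPM against 93.41, 93.85 and 78.84 TPM (log2 fold change -0.68, limma adjusted p = 0.114). Rmrp (-0.06) and Rpph1 (-0.51) overlapped between the genotypes. How far the carry-over of RNA without poly(A) tails entered the mitochondrial rRNA values was not tested.

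The 22 tRNAs are 59 to 75 bases long and were listed at 0 TPM in each tumor. The shortest, mt-Ts2 (a serine tRNA, chrM:11613-11671, plus strand, GRCm38), and the longest, mt-Tl1 (a leucine tRNA, chrM:2676-2750, plus strand, GRCm38), are printed whole to show how short these genes are beside the 150-base reads and the 300 bp fragments:
mt-Ts2: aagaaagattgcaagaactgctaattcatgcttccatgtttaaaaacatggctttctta
mt-Tl1: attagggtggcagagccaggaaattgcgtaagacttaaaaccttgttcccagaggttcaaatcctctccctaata
A value of 0 was not particular to mitochondrial genes of this length. Of the 802 genes in the table whose longest annotated transcript has at most 75 bases, 801 (99.9%) were at 0 in all 6 tumors, as were 719 of 719 genes with 76 to 100 bases. That share was 91.3% for genes with more than 200 and at most 300 bases and 67.7% for those with more than 500 and at most 1000 bases. The listed 0 therefore gives no level of the tRNAs.

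Several of the mRNAs have a near-identical copy in the nucleus, a stretch of mitochondrial DNA inserted into chromosome 1. GENCODE annotates 7 unprocessed pseudogenes within 4663 bases there, from 24611535 to 24616197 on the minus strand of GRCm38. Gm28661 (copy of mt-Co2), Gm10925 (mt-Atp6), Gm28437 (mt-Co3), Gm28438 (mt-Nd3), Gm10222 (mt-Nd4l) and Gm28439 (part of mt-Nd4) had no mismatch to the mitochondrial gene over 294 to 876 aligned bases. Gm29216 matched the last 483 bases of mt-Co1 with 1 mismatch, A1066T, counted from the first base of mt-Co1, with the base of mt-Co1 first. A further 16 genes shared at least 1 stretch of 31 bases with a mitochondrial gene, but less than 50% of their own, and apart from Cep295 none of them exceeded 1.43 TPM. No copy is annotated for mt-Atp8: between Gm10925 and Gm28661 lie 233 bases without one of these pseudogenes, where the mitochondrial genome has 230 bases between mt-Co2 and mt-Atp6. The sequence of those 233 bases was not used here, so whether they match mt-Atp8 was not tested.

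The first 60 bases of mt-Co2 (chrM:7013-7696, plus strand, GRCm38) and of Gm28661 (chromosome 1, minus strand) are the same, and are shown because a read from either matches both:
mt-Co2: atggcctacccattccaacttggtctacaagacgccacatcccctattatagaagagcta
Gm28661: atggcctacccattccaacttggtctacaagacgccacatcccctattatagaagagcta
Of the 492 bases of Gm29216, 483 were aligned to mt-Co1, from base 10 on. The 60 bases that hold the only mismatch in that alignment are printed with the differing base in capitals. They are bases 1063 to 1122 of mt-Co1 and 10 to 69 of Gm29216:
mt-Co1: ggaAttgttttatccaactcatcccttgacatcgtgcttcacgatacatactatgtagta
Gm29216: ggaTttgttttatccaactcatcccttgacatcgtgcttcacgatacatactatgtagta

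In the deposited table most of the signal of these sequences stood under the pseudogenes. Gm28661 was at 11944.69, 14600.22 and 13135.10 TPM in Trp53fl/fl tumors and 13875.96, 11608.47 and 13824.04 TPM in VP tumors, while mt-Co2, with the same sequence, was at 194.23 to 972.76 TPM. The mitochondrial gene held 1.60% to 6.55% of the TPM of its pair for mt-Co2, 1.60% to 3.13% for mt-Co3 and 4.61% to 9.23% for mt-Atp6. It held 8.27% to 15.0% for mt-Nd4l and 14.7% to 31.3% for mt-Nd3. The split went the other way where the copy covers only part of the gene, with 78.3% to 82.2% under mt-Co1 and 100% under mt-Nd4, whose copy Gm28439 was listed at 0. The 7 pseudogenes together held 4.53% ± 0.706 of all TPM in Trp53fl/fl tumors and 4.14% ± 0.46 in VP tumors (SD, n = 3 each). With the 37 genes, the 44 reached 11.0% ± 1.92 and 9.71% ± 1.20 (SD, n = 3 each). How many of these reads came from the nucleus was not tested, and levels of mt-Co2, mt-Atp6, mt-Co3, mt-Nd3 and mt-Nd4l on their own are uncertain for that reason.

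**Figure D3:**
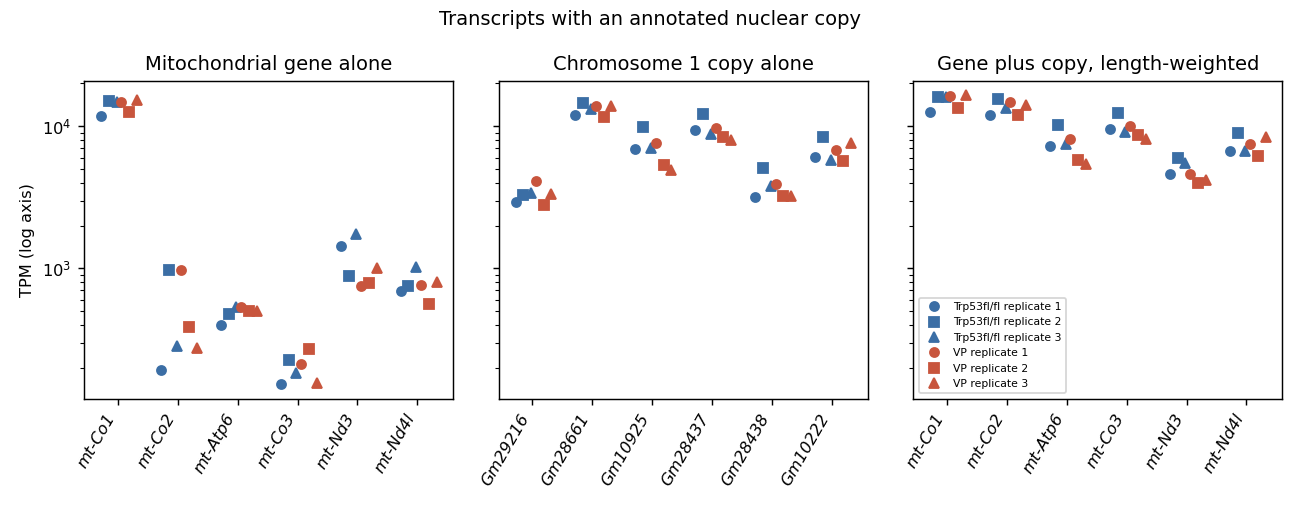
TPM on a log axis for the mitochondrial genes with a detected copy on chromosome 1 (left), for those copies (middle) and for both together weighted by length (right), with 1 point per tumor, blue for Trp53fl/fl and red for VP. mt-Co2 rises from 194.23 to 972.76 TPM alone to 11943 to 15505 TPM with its copy, close to mt-Co1 at 12673 to 16466 TPM.

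Each gene was then added to its copy, with TPM multiplied by length, summed and divided by the length of the mitochondrial gene. The 3 complex IV mRNAs then lay closer, at 12673 to 16466 TPM for mt-Co1, 11943 to 15505 TPM for mt-Co2 and 8189 to 12448 TPM for mt-Co3. mt-Co2 varied 5.01-fold alone, but its sum with Gm28661 was 12087, 15505 and 13363 TPM in Trp53fl/fl tumors and 14788, 11943 and 14038 TPM in VP tumors. That sum had a log2 difference of -0.0048 (standard error 0.18, 95% interval -0.42 to 0.41, limma adjusted p = 0.994). For mt-Atp6 the sum was 7291, 10240.44 and 7527 TPM against 8154, 5774 and 5406 TPM, a log2 difference of -0.38 (standard error 0.22, limma adjusted p = 0.499) where the gene alone had 0.14. Summed in this way, mt-Atp6 took the negative sign of mt-Atp8, from the same mRNA, and VP replicates 2 and 3 were again lowest. mt-Co3 with Gm28437 also changed sign, to -0.20 (standard error 0.18, limma adjusted p = 0.650). mt-Nd3 with Gm28438 was at 4579, 5938 and 5504 TPM against 4621, 3979 and 4208 TPM. Its log2 difference shrank to -0.32 (standard error 0.15, 95% interval -0.68 to 0.04, limma adjusted p = 0.435), and the genotypes still overlapped. mt-Nd4l with Gm10222 stood at -0.03 (limma adjusted p = 0.965), and mt-Co1 with Gm29216 kept 0.05 (limma adjusted p = 0.918). The sums did not bring all genes of a shared mRNA together. mt-Nd4l with Gm10222 was at 6166 to 9028 TPM, above mt-Nd4 at 2236 to 3166 TPM, whereas mt-Nd4l alone lay below it. mt-Atp8, at 19115 to 40186 TPM, stayed above mt-Atp6 with Gm10925, at 5406 to 10240 TPM, in every tumor. No sum of a gene and its copy passed the test.

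**Figure D4:**
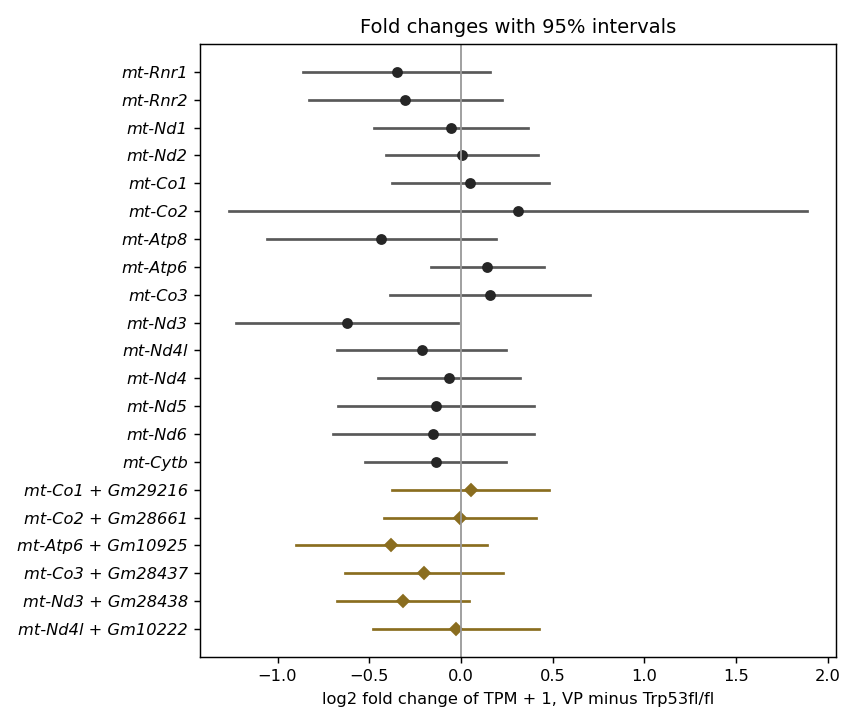
Log2 fold change of TPM + 1, VP minus Trp53fl/fl, with its 95% interval for the 15 detected mitochondrial transcripts (circles) and for 6 of them summed with their copy on chromosome 1 (diamonds). The interval of mt-Co2 narrows from between -1.26 and 1.89 to between -0.42 and 0.41 with the copy, and no point passed the adjusted test.

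The nuclear genes that transcribe, process and stabilize mitochondrial RNA also gave no call. Of 33 such genes tested, 0 passed at an adjusted p-value under 0.05 with limma and 3 had an unadjusted p-value under 0.05, all 3 with lower values in VP tumors, against 12.5% of all genes tested, so that no excess was seen. Their fold changes were positive for 6 and negative for 27, beside 5930 positive and 9187 negative over all genes tested. The median was -0.14, beside -0.07 over all genes tested. Polrmt, the mitochondrial RNA polymerase, was at 24.40, 20.64 and 26.82 TPM in Trp53fl/fl tumors against 19.66, 26.51 and 24.54 TPM in VP tumors (log2 fold change -0.03, limma adjusted p = 0.960). Tfam, which packages mitochondrial DNA and opens its promoters, was at 29.33, 38.59 and 35.19 TPM against 39.14, 37.40 and 30.09 TPM (log2 fold change 0.05, limma adjusted p = 0.912). Neither followed a genotype. Lrpprc and Slirp, partners that bind and stabilize mitochondrial mRNAs, stood at -0.18 (limma adjusted p = 0.623) and -0.30 on the log2 scale (limma adjusted p = 0.614).

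The 3 genes with an unadjusted p-value under 0.05 in that list belong to the MTERF family, which binds mitochondrial DNA or ribosomal RNA. Mterf3 was at 21.69, 23.95 and 24.38 TPM in Trp53fl/fl tumors against 13.49, 18.68 and 17.36 TPM in VP tumors (log2 fold change -0.49, limma adjusted p = 0.317). Mterf4, which works in assembly of the mitochondrial ribosome, was at 13.20, 16.01 and 12.95 TPM against 10.46, 11.19 and 10.71 TPM (log2 fold change -0.35, limma adjusted p = 0.365). The genotypes did not overlap in either gene, as in 19.3% of all genes tested, and neither passed the adjustment. Mterf1b was at 1.89, 1.78 and 1.15 TPM against 0.52, 0.64 and 1.15 TPM (log2 fold change -0.56, limma adjusted p = 0.391), and is uncertain because Mterf1a is a close paralog.

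Of 14 genes that maintain mitochondrial DNA, 3 had positive and 11 negative fold changes, with a median of -0.18. Over all genes tested, 5930 were positive and 9187 negative. With limma 0 of the 14 passed and 1 had an unadjusted p-value under 0.05 (12.5% over all genes tested). That gene was Primpol, a primase that restarts stalled replication, at 8.85, 7.26 and 7.49 TPM in Trp53fl/fl tumors and 4.42, 5.64 and 5.26 TPM in VP tumors (log2 fold change -0.54, limma adjusted p = 0.302). Of 8 nuclear regulators of mitochondrial gene sets, 0 passed with limma and 1 had an unadjusted p-value under 0.05, again beside 12.5% over all genes, with a median of -0.11. Ppargc1a, the coactivator PGC-1α, was at 5.37, 4.82 and 8.40 TPM against 7.80, 4.07 and 5.84 TPM (log2 fold change -0.06, limma adjusted p = 0.934). Gabpa, a subunit of a transcription factor for respiratory genes, was at 18.24, 25.01 and 15.84 TPM against 13.67, 12.95 and 12.87 TPM (log2 fold change -0.52, limma adjusted p = 0.337). Its values did not overlap between the genotypes, as in 19.3% of all genes tested. Yy1, which acts with PGC-1α, stood at -0.29 on the log2 scale (limma adjusted p = 0.408).

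The nuclear genes for the other subunits of the same complexes were measured in the same libraries. Of 71 tested, 0 passed with limma and 5 had an unadjusted p-value under 0.05, 3 higher and 2 lower in VP tumors, beside 12.5% of all genes tested. Fold changes were positive for 52 and negative for 19, beside 5930 positive and 9187 negative over all genes tested. Their median was 0.12, against -0.07 over the 13 mitochondrial mRNAs and -0.07 over all genes tested. With the nuclear copies added, the median of the 13 mRNAs was -0.14. By complex, the nuclear medians were 0.12 for 36 complex I genes, 0.14 for 9 complex III genes, 0.07 for 11 complex IV genes and 0.10 for 15 ATP synthase genes. The medians are descriptions, and the difference between the nuclear and the mitochondrial subunits was not tested.

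**Figure D5:**
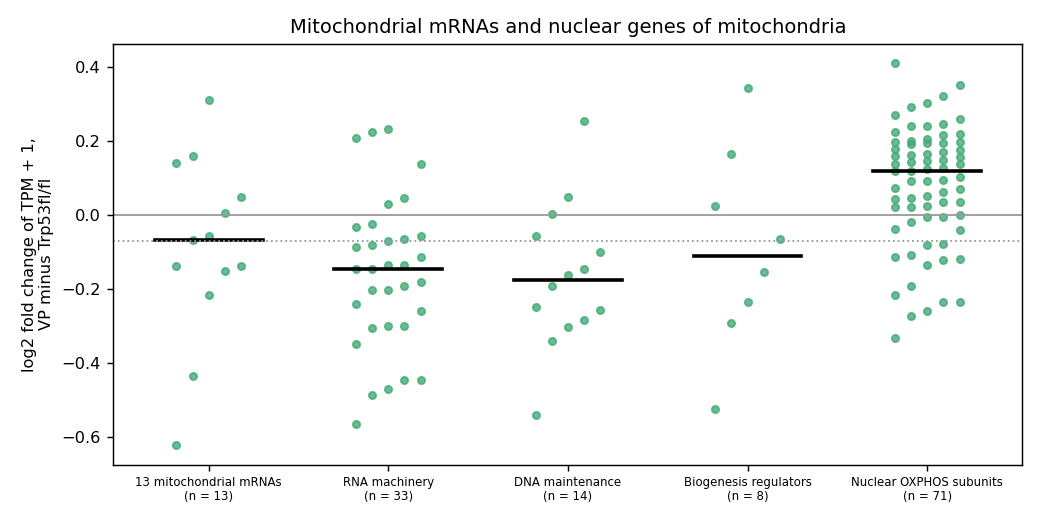
Log2 fold change of TPM + 1, VP minus Trp53fl/fl, with 1 point per gene for the 13 mitochondrial mRNAs and 4 lists of nuclear genes, a bar at each median and a dotted line at the median of all genes tested, -0.07. The median is -0.14 for the RNA machinery and 0.12 for the nuclear subunits of oxidative phosphorylation (OXPHOS), and no plotted gene passed the adjusted test.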

How the data were processed

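Poly(A)-selected RNA from 6 AOM/DSS tumors was sequenced from both ends with 150-base reads. The authors deposited TPM per gene with 2 decimals, in a separate column for each sample. Whether material was pooled before sequencing is not stated in the labels. The submitters' processing notes name HISAT2, StringTie and mm9; versions, annotation, strand setting and treatment of reads with several matches are not given in the sources used here. TPM keep no read counts, so the depth per tumor is unknown, no counting error could be given and no count test was made. Each column was tied to its tumor through the code in the sample labels, and replicate numbers are those of the labels.

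Fold changes and tests used log2(TPM + 1), which understates changes of low genes, for the 15117 genes that reached 1 TPM in 3 or more tumors, in limma 3.58.1 (R 4.3.3; empirical Bayes with trend, Benjamini-Hochberg adjustment over all genes tested, no block), a procedure also tested on simulated data. Coordinates, lengths and sequences are from GENCODE M21 (GRCm38), not the mm9 of the notes; 52147 of 54167 gene IDs (96.3%) and all 37 mitochondrial genes matched. Copies were found by shared 31-base stretches (at least 50% of the stretches of the gene) and aligned with Biopython 1.88. A fixed list of copies also held Gm10221, which aligned over only 12 bases and was not counted as a copy.

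Genes, lists and tests were chosen with earlier results of these data known. By rule the text names every detected member, Trp53, Polrmt, Tfam, Lrpprc, Slirp, Ppargc1a, the 6 genes with the smallest p-value in the lists on RNA machinery, DNA maintenance and regulators, and the copies. Rn18s, Rn7s1, Rn7s2, Rmrp, Rpph1 and Lars2 were named after their values were seen. Alternatives were a pseudocount of 0.1, no filter, a minimum mean of 5 TPM, rescaling by median of ratios or without mitochondrial rows, division by 12 epithelial markers, a replicate block, no trend, each tumor left out, and, added after the data were seen, sums and shares with the copies.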

Additional observations from a re-analysis of the deposited data

How the results depend on the processing

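No mitochondrial transcript and no gene of the RNA machinery passed at an adjusted p-value under 0.05 under any of the alternatives run, and the lowest adjusted p of a member over them was 0.103, for mt-Nd3. Over all genes, the count of 25 became 7 with no filter, 44 with division by epithelial markers, 10 with the replicate block, and 6 to 28 when 1 tumor was left out (8 and 10 without Trp53fl/fl replicates 1 and 3, 9 and 6 without VP replicates 1 and 2). Trp53 and Rn18s kept their direction and lost their calls with no filter (limma adjusted p = 0.104 and 0.354) and with the replicate block (0.0883 and 0.128). The replicate numbers of the labels are only names: tumors with the same number had correlations of 0.02, -0.05 and 0.02 between their deviations, and the block called no member. The median of the 13 mRNAs lay between -0.20 and 0.045 and the difference in summed share between -1.47 and -0.27 percentage points when 1 tumor was left out. Division by epithelial markers moved the median of all genes from -0.07 to -0.27, and values under it are to be read against that shift. Of 419 single-gene values, 33 in 12 genes changed sign, and none of these was called. Median-of-ratios rescaling gave 0.014 for mt-Nd1, 0.0043 for mt-Nd4 and 0.042 for Polrmt. Rescaling without mitochondrial rows gave -0.0072 for mt-Nd2. Division by epithelial markers gave -0.21 for mt-Nd2, -0.17 for mt-Co1, -0.076 for mt-Atp6, -0.059 for mt-Co3 and -0.17 for Tfam. Sums with the copies gave -0.0048 for mt-Co2, -0.38 for mt-Atp6 and -0.20 for mt-Co3. With 1 tumor left out, the ranges were -0.55 to -0.21 for mt-Rnr1, -0.51 to -0.063 for mt-Rnr2, -0.17 to 0.073 for mt-Nd1, -0.14 to 0.16 for mt-Nd2, -0.066 to 0.14 for mt-Co1, -0.21 to 0.99 for mt-Co2, -0.62 to -0.23 for mt-Atp8, 0.03 to 0.24 for mt-Atp6, -0.036 to 0.37 for mt-Co3, -0.90 to -0.41 for mt-Nd3, -0.16 to 0.045 for mt-Nd4, -0.32 to 0.029 for mt-Nd5, -0.34 to 0.019 for mt-Nd6, -0.23 to -0.022 for mt-Cytb, -0.32 to -0.052 for mt-Nd4l, -0.12 to 0.095 for Polrmt, -0.059 to 0.16 for Tfam and -0.26 to 0.14 for Ppargc1a. The cause of these sign changes was not tested. No depth could be computed from TPM, and with 3 tumors a genotype the intervals of most members still hold changes in either direction.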

Other observations

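Genes that use the mitochondrial rRNAs and tRNAs were looked at after the data were seen, as a description. Of 17 genes of mitochondrial aminoacyl-tRNA synthetases, which load amino acids onto the tRNAs, 15 had negative and 2 positive log2 fold changes (VP minus Trp53fl/fl). Over all genes tested, 9187 were negative and 5930 positive. The median of the 17 was -0.21 beside -0.07 over all genes tested. With limma 0 passed the adjustment and 2 had an unadjusted p-value under 0.05, beside 12.5% of all genes tested. Lars2, the mitochondrial leucyl-tRNA synthetase, was at 46.11, 41.75 and 40.67 TPM in Trp53fl/fl tumors against 24.57, 29.34 and 27.88 TPM in VP tumors, without overlap, as in 19.3% of all genes tested, and did not pass (log2 fold change -0.64, limma adjusted p = 0.143). Of 77 genes for proteins of the mitochondrial ribosome, 43 had positive and 34 negative fold changes, with a median of 0.04. In limma 0 passed and 3 had an unadjusted p-value under 0.05, 2 higher and 1 lower in VP tumors, beside the same 12.5%.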
